A study of Caenorhabditis briggsae with 10 samples.

Results

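In the hybrid of 2 wild-type strains of the nematode Caenorhabditis briggsae, reads can be assigned to the HK104 or the AF16 copy of a gene, and 200 genes were studied at which the balance of reads between these copies differed most between a cold and a control library. They were taken from 23175 genes by the hybrid's own allele counts. The allele ratio was the log2 value of HK104 reads divided by AF16 reads, after 0.5 was added to both numbers. A total of 6576 genes had at least 40 allele reads in each hybrid library and an AF16 share of 5% to 95% in at least 1 of them. The ratio differed by 1 or more on the log2 scale at 356 of these, and the 200 with the largest difference are described here. The difference, cold minus control, is called the allele shift below. It was used to choose the genes, so it is given as a description with no test.

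The libraries were made from whole worms: HK104 cold, HK104 control, AF16 cold and AF16 control with 2 libraries each, and hybrid cold and hybrid control with 1 library each. HK104 is of temperate and AF16 of tropical origin. As the libraries are bulk samples, fewer cells of a type and less RNA per cell cannot be told apart. All were labelled wild type. Synchronised worms of the mid to late L4 larval stage spent 24 hours at 20 °C and were collected then (control) or after a further 60 hours at 4 °C (cold), so a cold value also includes the added 60 hours. The direction of the cross, the generation and the sex of the hybrid worms are not given in the labels, and neither is whether the replicates were separate cultures, so p-values measure the spread between these libraries, which may be technical.

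In an F1 hybrid both copies of a gene share the same nucleus and the same regulatory proteins. A difference in cis, in the DNA of the copy itself, therefore shows as unequal reads from the copies, whereas a difference in trans, in a diffusible regulator, acts on both. When a cis difference acts only in one condition, the allele ratio changes between conditions. The parental strains are then expected to differ in their response by a like amount, unless a difference in trans also alters the response. The gene IDs could not be paired with symbols, so no functions are given for the genes below, and the whole-worm label was not checked against marker genes.

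The chosen genes rested on fewer reads than most. Their median number of allele reads was 82.5 in the cold and 87.5 in the control library, against 432 and 344 over all 6576 genes. The 2 libraries held 6008659 (cold) and 5334965 (control) allele reads. Of the 1126 genes with fewer than 80 reads in the smaller library, 123 (10.9%) were among the 200, and of the 2737 genes with 400 or more, 6 (0.219%). The standard error of the allele shift from counting alone had a median of 0.55 in the 200 genes and 0.22 in all 6576. The shift was 3 or more times this error at 98 of the 200 genes, between 2 and 3 times at 81 and under 2 times at 21. The same shifts chose the genes, so these counts describe the list and are no test. Where a copy had no read, the error also depends on the 0.5 added. With 1 hybrid library per condition the spread between libraries is not measured, and intervals below cover counting error only.

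The balance shifted toward HK104 at 90 genes and toward AF16 at 110. The absolute shift ranged from 1.24 to 6.99 with a median of 1.62, and was 2 or more at 56 genes. At 57 genes the AF16 share lay between 40% and 60% in the control library and outside this range in cold, and at 41 the reverse held. The majority allele differed between the libraries at 80 genes. In either library 44 of the 200 genes (22.0%) had an AF16 share under 5% or over 95%.

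**Figure D1:**
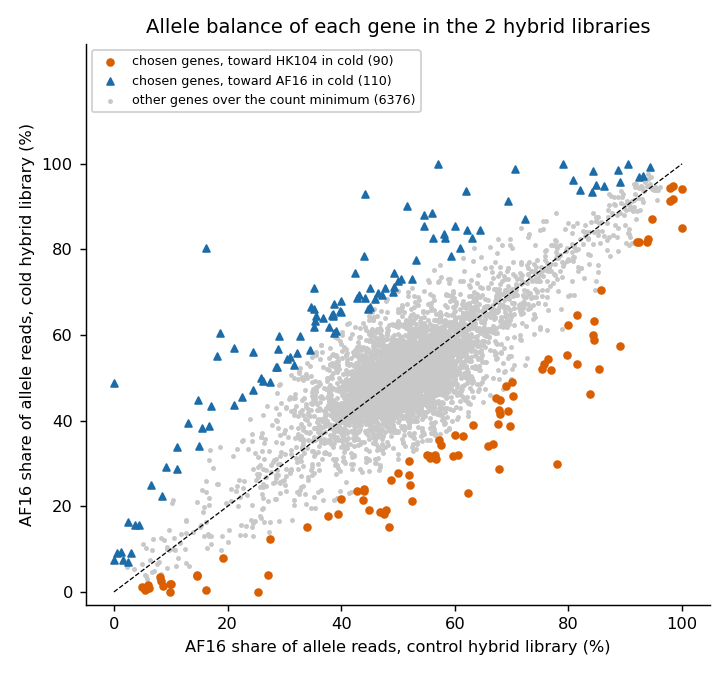
AF16 share of allele reads in percent in the cold (vertical) and control (horizontal) hybrid library, 1 point per gene, for the 90 genes shifted toward HK104 (circles), the 110 shifted toward AF16 (triangles) and the other genes over the count minimum (grey). The dashed line marks equal shares; the coloured points lie away from it because the difference in log2 allele ratio was used to choose them.

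The 4 largest shifts were at genes that lacked any read of 1 allele in 1 library. WBGene00039366 had 43 HK104 and 41 AF16 reads in cold, against 66 and 0 in control. Its AF16 share was 48.8% in cold (95% Wilson interval 38.4 to 59.3) and 0 of 66 reads in control, which allows a share of up to 4.55% by a limit of 3 reads and 5.50% by the Wilson interval. The copies were thus read about equally in cold, and AF16 was not detected in control. WBGene00035333 had 0 HK104 and 65 AF16 reads in cold, against 52 and 69 in control. Here the HK104 copy, at up to 4.62% of reads by the limit of 3 reads, was the one not detected, and in the cold library.

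Toward HK104, WBGene00028635 had 79 HK104 and 0 AF16 reads in cold, against 168 and 57 in control. WBGene00026255 had 21 HK104 and 120 AF16 reads in cold, against 0 and 116 in control. The undetected copy was AF16 in cold at the first gene and HK104 in control at the second. These 4 shifts were -6.99, -6.63, 5.76 and 5.38, with counting errors of 2.07, 2.06, 2.06 and 2.07, and their size depends on the 0.5 added to a count of 0. Among the 20 largest shifts, 15 genes had a library with an AF16 share under 5% or over 95%.

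The 2 genes with the most reads in each direction had counting errors from 0.11 to 0.38. WBGene00030209 had 1018 HK104 and 1159 AF16 reads in cold, against 364 and 1139 in control. Its AF16 share was 53.2% in cold (95% Wilson interval 51.1 to 55.3) and 75.8% in control (73.6 to 77.9), a shift of 1.46 with a counting error of 0.11. WBGene00041700 had 780 HK104 and 1350 AF16 reads in cold, against 109 and 597 in control. At both genes the HK104 copy had the minority of reads in both libraries and a larger share in cold. WBGene00024634, toward AF16, had 55 HK104 and 125 AF16 reads in cold, against 849 and 644 in control. WBGene00024994 had 26 HK104 and 906 AF16 reads in cold, against 35 and 478 in control, an AF16 share of 97.2% in cold and 93.2% in control.

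The change of each copy was then taken alone, as log2 of its reads per 1000000 allele reads (RPM) in cold over control. At 139 of the 200 genes (69.5%) exactly 1 allele differed by 2-fold or more, beside 10.8% of the 6576. These are the counts that chose the genes, so the values only describe them. Among genes shifted toward AF16, the HK104 copy alone was lower in cold at 47 genes, the AF16 copy alone was higher at 35 and both were lower at 7. Among genes shifted toward HK104, the AF16 copy alone was lower at 31, the HK104 copy alone was higher at 26 and both were lower at 9. The copies differed by 2-fold or more in opposite senses at 7 genes, 3 toward HK104 and 4 toward AF16. At 36 genes neither copy reached 2-fold, and at the other 2 both were higher.

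**Figure D2:**
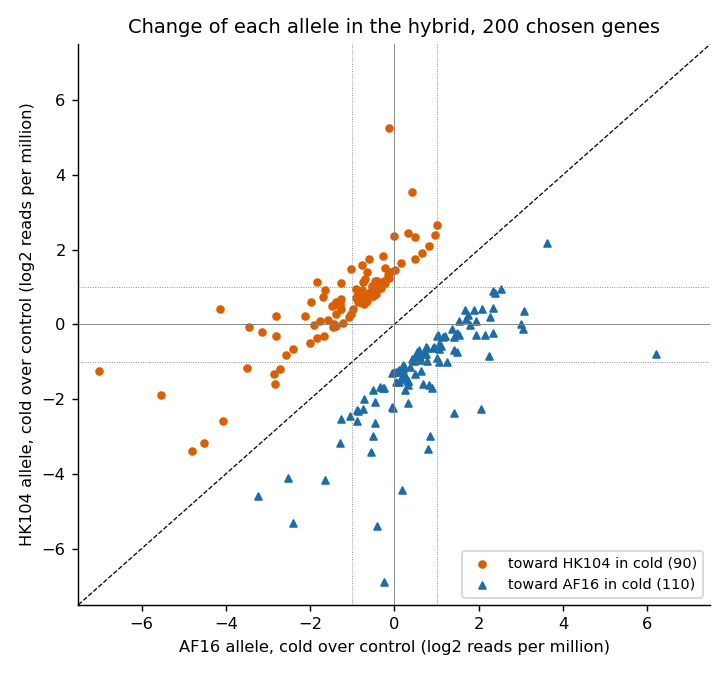
Log2 change, cold over control, of the HK104 allele (vertical) and AF16 allele (horizontal) in RPM, 1 point per gene, for the 90 genes shifted toward HK104 (circles) and the 110 toward AF16 (triangles). Dotted lines mark 2-fold changes and the dashed line equal changes; the groups lie on opposite sides of the dashed line by choice, and 139 of 200 points lie past 2-fold on 1 axis alone.

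The parental libraries, which share no sample with the hybrid, were used to ask whether the strains differ in their cold response at these genes. All 200 genes passed the filter on low counts. The parental difference, the log2 cold response of HK104 minus that of AF16, was tested by edgeR's quasi-likelihood test over 13503 genes. It passed an adjusted p-value (FDR) of 0.05 at 5 of the 200 genes (2.5%), with 1 higher and 4 lower. Over all tested genes 67 passed (0.496%), 59 higher (0.437%) and 8 lower (0.0592%), and over the 6576 genes 26 (0.395%). All 5 had the sign of the allele shift, as did 17 of the 26. An unadjusted p below 0.05 was met by 23 of the 200 genes (11.5%), beside 7.24% of all tested genes and 4.27% of the 6576. The sign of the shift was matched by 20 of these 23 genes, and by 173 of 281 (61.6%) over the 6576.

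The 5 calls depended on single libraries. Without the first AF16 cold library 5 of the 200 genes were called, 4 of them the same genes, and without the second HK104 cold library 3. Without the second AF16 cold library 1 was called, and when any 1 of the 5 other libraries was left out edgeR called none, with 17 to 21 genes at an unadjusted p below 0.05. Over all tested genes these settings called 59, 93 and 1 genes and, for the other 5 libraries, between 0 and 13. With total counts in place of TMM scaling edgeR called 0 of the 200 and 0 of all 13503, with 18 of the 200 at an unadjusted p below 0.05. The DESeq2 test called 10 of the 200, 5 of them higher, and included the 5 genes of edgeR. Of these 10 genes, 9 had the sign of the allele shift.

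WBGene00038280 shifted toward AF16. Its hybrid counts were 47 HK104 and 62 AF16 reads in cold, against 127 and 34 in control, a shift of -2.28 (counting error 0.39). In the strains it had 9.41 and 7.19 CPM (counts per 1000000, TMM-scaled) in HK104 cold, against 33.0 and 27.9 CPM in HK104 control, and 13.5 and 15.5 CPM in AF16 cold, against 9.0 and 9.84 CPM in AF16 control. Both HK104 cold libraries lay below both controls, and both AF16 cold libraries above theirs, which gave a parental difference of -2.49 ± 0.35 (SE, FDR = 0.0228). The response of HK104 alone was -1.87 ± 0.25 (FDR = 0.000535), while that of AF16, 0.62 ± 0.25, did not pass (FDR = 0.102).

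WBGene00038120 had 37 HK104 and 19 AF16 reads in cold, against 112 and 14 in control, a shift of -2.01 (counting error 0.57). Its strain levels were 6.17 and 4.42 CPM in HK104 cold, against 24.8 and 28.1 CPM in HK104 control, and 2.79 and 2.76 CPM in AF16 cold, against 2.53 and 2.76 CPM in AF16 control. HK104 fell by 2.32 ± 0.27 (FDR = 0.000238), AF16 did not pass the test (0.07 ± 0.29, FDR = 0.897), and the parental difference was -2.39 ± 0.39 (SE, FDR = 0.0328). The strains differed in control, with HK104 higher by 3.32 ± 0.29 (FDR = 0.000108), and after cold the difference of 0.93 ± 0.28 did not pass (FDR = 0.0558).

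WBGene00024634 fell in both strains. It had 3.67 and 3.30 CPM in HK104 cold, against 92.5 and 94.2 CPM in HK104 control, and 20.8 and 12.1 CPM in AF16 cold, against 101 and 95.6 CPM in AF16 control. The fall was larger in HK104, at -4.74 ± 0.30 (FDR = 1.21e-05), than in AF16, at -2.57 ± 0.26 (FDR = 0.000134), and the parental difference was -2.17 ± 0.37 (SE, FDR = 0.0371). In the hybrid both copies had fewer reads in cold, by -4.11 (HK104) and -2.53 (AF16) on the log2 scale.

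WBGene00040743 was the called gene with a shift toward HK104. It had 231 HK104 and 64 AF16 reads in cold, against 48 and 32 in control, a shift of 1.27 (counting error 0.39). Its strain levels were 80.5 and 56.7 CPM in HK104 cold, against 15.9 and 12.1 CPM in HK104 control, and 9.51 and 7.42 CPM in AF16 cold, against 11.8 and 10.2 CPM in AF16 control. HK104 rose by 2.29 ± 0.27 (FDR = 0.000259), AF16 did not pass the test (-0.38 ± 0.27, FDR = 0.368), and the parental difference was 2.67 ± 0.38 (SE, FDR = 0.0228). The AF16 copy had a higher RPM in cold than in control in the hybrid, with a log2 change of 0.82 beside 2.08 for the HK104 copy.

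The fifth gene, WBGene00030657, was almost without AF16 reads. Its counts were 40 HK104 and 4 AF16 reads in cold, against 184 and 1 in control. HK104 had 7.89 and 6.13 CPM in cold, against 39.0 and 41.4 CPM in control, a fall of -2.52 ± 0.26 (FDR = 0.000221). AF16 had 4 and 5 counts in cold and 0 in both controls. The fitted parental difference of -7.67 ± 1.07 (SE, FDR = 0.0228) rests on these few counts, depends on the prior count and is no bound.

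**Figure D3:**
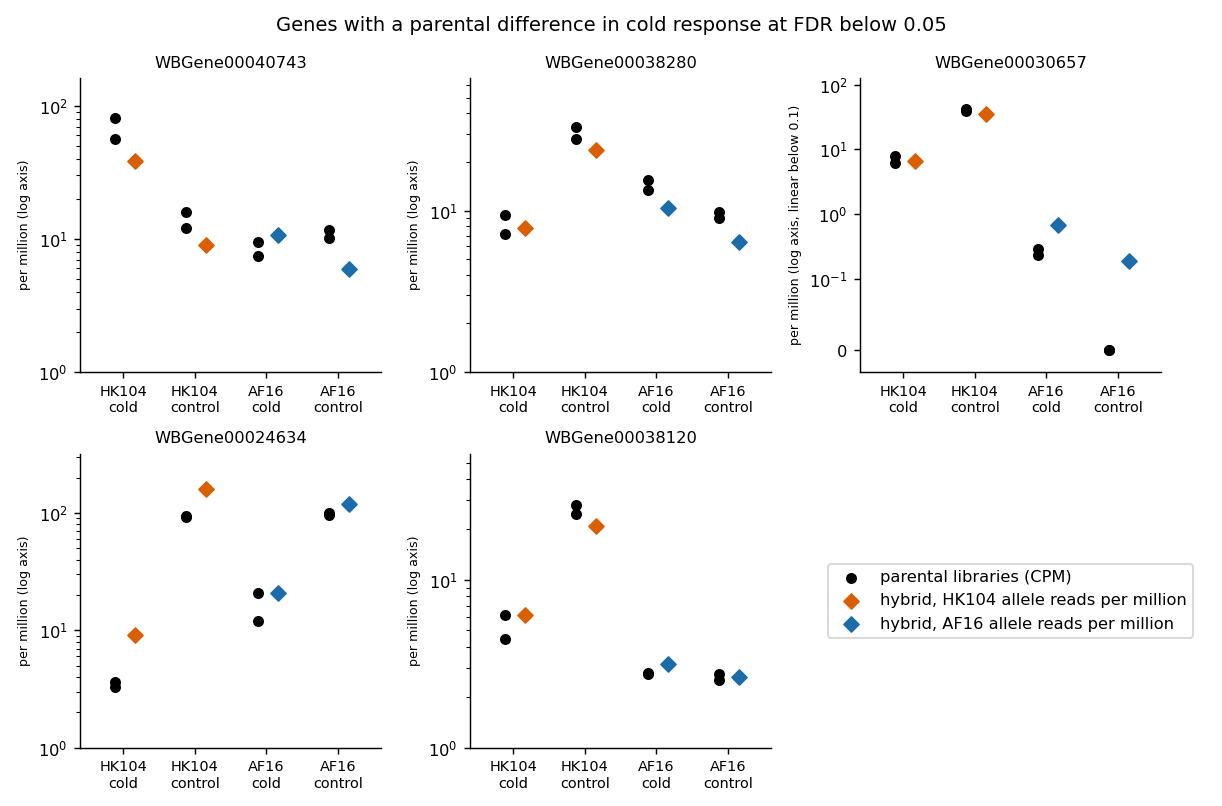
Level in the HK104 cold, HK104 control, AF16 cold and AF16 control libraries (black, CPM, 2 libraries each) and of the HK104 and AF16 allele in the hybrid (diamonds, RPM, 1 library each), on log axes, for the 5 genes with a parental difference at an FDR below 0.05. At WBGene00038280, WBGene00030657, WBGene00024634 and WBGene00038120 the HK104 copy was lower in cold than in control, as strain HK104 was, and at WBGene00040743 it was higher, as strain HK104 was.

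Over the 200 genes as a whole the parental difference was small beside the allele shift. The genes were chosen for large shifts and not by the parental difference, so this contrast follows in part from the choice. Taken along the direction of the shift, its median was 0.10, against a median absolute shift of 1.62, and it was above 0 at 121 genes (60.5%). The same measures over all 6576 genes were 0.02 and 53.3%. It reached 1 or more along the shift at 25 genes (12.5%) and 1 or more against it at 3 (1.5%), beside 2.60% and 1.51% of the 6576. It lay within 0.5 of 0 at 136 genes (68.0%), fewer than the 86.5% of the 6576. The 200 genes also had lower levels in the strains, with a median of 14.6 CPM against 58.4 CPM over the 6576. The median SE of the parental difference was 0.41 against 0.36. The part of level and SE in these shares was not tested. Across the 200 genes, which are not independent replicates and were chosen for extreme shifts, the shift and the parental difference had Pearson's r = 0.329 and Spearman's rho = 0.301, against 0.147 and 0.104 across the 6576.

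The scaling moved the parental difference of most genes in 1 direction. Its median over the 6576 genes was 0.04 with TMM and -0.11 with DESeq2 size factors, so the medians below are set against that centre. Genes shifted toward HK104 had a median of 0.28 with TMM and 0.13 with DESeq2 size factors, above the centre under both. This median also lay above the centre whichever library was left out. It was lowest without the first HK104 cold library (0.07, centre -0.10) and highest without the second (0.36, centre -0.01). Genes shifted toward AF16 had medians of 0.01 and -0.14, near the centre under both scalings. Their median lay below the centre without the second AF16 cold library (-0.22, centre -0.01) and without the first HK104 cold library (-0.25, centre -0.10). Without the first AF16 cold library it lay above the centre, against the shift (0.06, centre -0.07). It stayed near the centre without the first (0.045, centre 0.073) or second AF16 control library (-0.004, centre 0.009). The same held without the first (0.040, centre 0.059) or second HK104 control library (-0.010, centre 0.029), and without the second HK104 cold library (0.004, centre -0.006). The sign matched the shift at 69 of 90 genes toward HK104 and at 52 of 110 toward AF16 with TMM, and at 55 and 74 with DESeq2 size factors. It matched at 48 of 90 and 83 of 110 without the first HK104 cold library. Without the second AF16 cold library it matched at 54 of 90 and 84 of 110. These counts are taken against 0 and not against the centre. The parental difference was above 0 at 57.1% of the 6576 genes with TMM and at 32.2% with DESeq2 size factors. This share was 36.0% without the first HK104 cold library and 49.0% without the second AF16 cold library. Which direction matched more often thus changed with the scaling and with single libraries, as the share over the 6576 genes did.

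**Figure D4:**
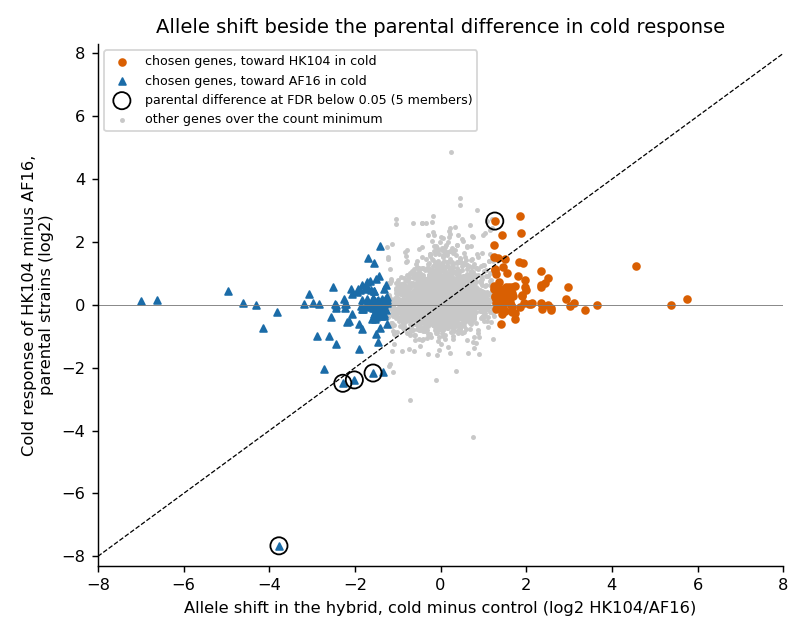
Parental difference in cold response, HK104 minus AF16 in log2 units (vertical), against the allele shift of the hybrid, cold minus control in log2 HK104/AF16 (horizontal), 1 point per gene. The dashed line marks equal values and black rings the 5 genes at an FDR below 0.05; 136 of the 200 chosen genes (68.0%, coloured) lie within 0.5 of 0 on the vertical axis, beside 86.5% of all 6576.

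The largest shifts, which were picked as extremes, had no counterpart of like size in the strains. At WBGene00039366 the strains had 369 and 527 CPM in HK104 cold, against 400 and 410 CPM in HK104 control, and 414 and 436 CPM in AF16 cold, against 432 and 410 CPM in AF16 control. The HK104 cold libraries spanned the levels of the other 3 groups, and the parental difference was 0.13 ± 0.31 (SE, FDR = 1.00). WBGene00035333 had 630 and 679 CPM in HK104 cold, against 559 and 557 CPM in HK104 control, and 771 and 693 CPM in AF16 cold, against 697 and 693 CPM in AF16 control. WBGene00026255 had 353 and 487 CPM in HK104 cold, against 463 and 468 CPM in HK104 control, and 354 and 521 CPM in AF16 cold, against 486 and 481 CPM in AF16 control. No group of these 3 genes was near 0, although a copy went undetected in a hybrid library. Their parental differences of 0.15 ± 0.28 and -0.00 ± 0.35 for the last 2 did not pass either.

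WBGene00028635 differed from these in the strains. It had 28.1 and 13.4 CPM in HK104 cold, against 32.2 and 23.4 CPM in HK104 control, and 0.399 and 0.115 CPM in AF16 cold, against 0.493 and 0.300 CPM in AF16 control. The parental difference was 0.18 ± 0.83 (SE) and did not pass the test. HK104 was higher by 6.29 ± 0.57 after cold (FDR = 0.000134) and by 6.11 ± 0.54 in control (FDR = 0.000124). These values rest on few AF16 counts, 7 and 2 in cold and 8 and 5 in control. The hybrid control library nevertheless gave 57 AF16 reads, 25.3% of the reads of the gene (95% Wilson interval 20.1 to 31.4), and the cold library 0 of 79, which allows up to 3.80% by the limit of 3 reads and 4.64% by the Wilson interval. At the deeply read WBGene00030209 all strain libraries lay between 138 and 180 CPM, with 148 and 164 CPM in HK104 cold, against 138 and 144 CPM in HK104 control, and 165 and 180 CPM in AF16 cold, against 148 and 144 CPM in AF16 control. The parental difference was -0.10 ± 0.25 (FDR = 1.00), and the hybrid's control library, with 75.8% AF16 reads, was farther from an equal share than its cold library, with 53.2%.

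**Figure D5:**
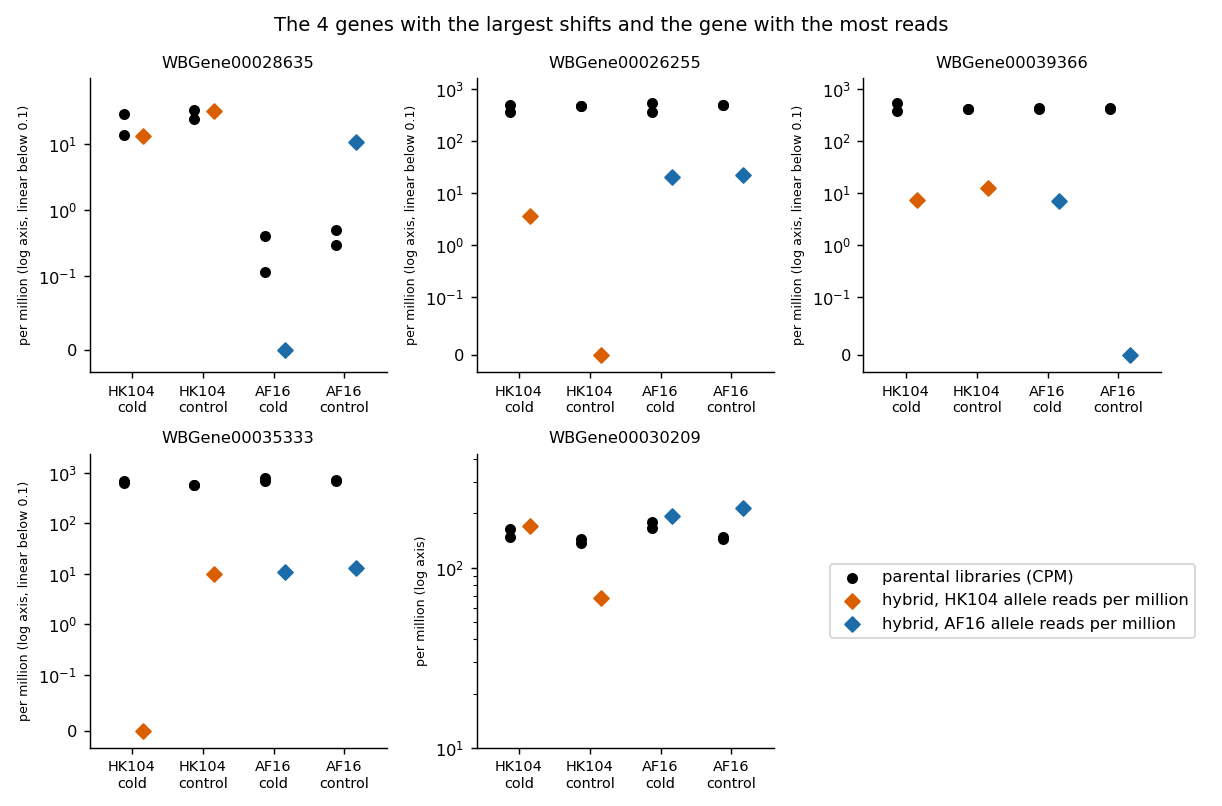
Level in the HK104 cold, HK104 control, AF16 cold and AF16 control libraries is shown in black (CPM, 2 libraries each), on log axes. Diamonds give the HK104 and AF16 allele in the hybrid (RPM, 1 library each). The genes are the 2 with the largest shifts in each direction and WBGene00030209, which had the most reads. At WBGene00026255, WBGene00039366 and WBGene00035333 every hybrid allele value lay below every strain value, and 1 allele value was 0.

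Of the 4 genes with the largest shifts, 3 had few allele reads for their level in the strains. WBGene00039366 had 13.2 RPM in the hybrid, both copies and libraries together, beside a mean of 425 CPM in the strains. WBGene00035333 had 16.4 beside 660 CPM, and WBGene00026255 had 22.7 beside 451 CPM. WBGene00028635 had 26.8 RPM beside a mean of 12.3 CPM over both strains, which differed widely at this gene. The deeply read WBGene00030209 had 324 RPM beside 154 CPM. RPM is scaled to allele reads alone, and over all 6576 genes the median log2 of RPM over CPM was 0.61. Among the 20 largest shifts 13 genes (65.0%) had under 0.25 times the level in the hybrid, in RPM, that they had in the strains, in CPM, among all 200 genes 44 (22.0%), and among all 6576 genes 223 (3.39%). The rule by which reads were assigned to a copy is not given in the sources used here, and the part of such genes in the shifts was not tested.

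Each copy was also set against its own strain, by comparing its log2 change in the hybrid with that of the strain. At 127 of the 200 genes (63.5%) exactly 1 copy departed from its strain by 1 or more, the HK104 copy at 61 and the AF16 copy at 66. Both copies lay within 1 of their strains at 66 genes and both departed at 7. Over the 6576 genes the HK104 copy alone departed at 3.86%, the AF16 copy alone at 4.50%, both at 1.00% and neither at 90.6%. Of the 127 lone departures, 70 were above the strain. Since the genes were chosen for a difference between the copies, a departure of at least 1 copy follows in part from the choice. The summed change of both copies stayed within 1 of the mid-parent change at 176 (88.0%) of the chosen genes, and at 97.7% of all 6576.

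The allele ratio within each library was compared with the strain difference of that condition. After cold 46 of the 200 genes (23.0%) differed between the strains, 30 higher and 16 lower in HK104, beside 12.7% of all tested genes (7.08% higher and 5.58% lower) and 8.47% of the 6576. Without the second AF16 cold library fewer of the called genes were higher in HK104 and more were lower. In control 34 (17%) differed, 19 higher and 15 lower, beside 7.01% of all tested genes (3.01% higher and 4% lower) and 4% of the 6576. Without the second control library of either strain fewer were called, among the 200 genes and over all tested genes. Of the 46, 40 (87.0%) had more reads from the copy of the strain with the higher level in the cold hybrid library, and of the 34, 30 did in the control library (88.2%). Over the 6576 genes this held at 424 of 557 called genes after cold (76.1%) and at 237 of 263 in control (90.1%). Genes with no call matched in sign at 94 of 154 after cold (61.0%) and at 87 of 166 in control (52.4%), beside 57.6% and 58.7% over the 6576. The absolute distance of the allele ratio from the strain difference had a median of 1.06 in cold and 1.03 in control, against 0.31 and 0.27 over the 6576 genes. The cold library was the nearer one at 95 of the 200 genes.

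A strain difference was called in both conditions at 25 of the 200 genes, in cold alone at 21, in control alone at 9 and in neither at 145. The shares of the 6576 were 3.16% in both, 5.31% in cold alone, 0.836% in control alone and 90.7% in neither, against 12.5%, 10.5%, 4.5% and 72.5% of the 200. At 17 of the 21 genes called in cold alone the balance shifted toward the copy of the higher strain. At 7 of the 9 called in control alone it shifted away from that copy. No like share over the 6576 genes was taken, so these counts only describe the chosen genes. A call in 1 condition alone does not show that the strain difference changed, and 5 of the 200 genes passed that test.

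Most cold responses called in the strains were falls, at the 200 genes as over all tested genes. In HK104 46 (23.0%) were called, 10 higher and 36 lower, beside 21.1% of all tested genes (4.54% higher and 16.6% lower) and 14.1% of the 6576. In AF16 37 (18.5%) were called, 4 higher and 33 lower, beside 22.9% of all tested genes (2.78% higher and 20.1% lower) and 14.3% of the 6576. The split in AF16 depended on the scaling and on 1 library. Of 34 calls made with DESeq2 size factors 8 were higher, of 28 with total counts 6, and of 39 without the second AF16 cold library 21. Leaving out the first HK104 control library lowered the number called in HK104, among the 200 genes and over all tested genes. In AF16 leaving out the second control library lowered it and leaving out the first cold library raised it, in both sets. A response was called in both strains at 26 genes (13%, beside 9.50% of the 6576), in the same direction at 25 of them, as at 98.4% of such genes over the 6576. It was called in neither strain at 143 genes (71.5%), beside 81.1% of the 6576.

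The parental difference was also read by depth. Of the 200 genes 33 had 160 or more allele reads in both hybrid libraries. Their median absolute shift was 1.64, close to the 1.60 of the other 167. The parental difference had the sign of the shift at 17 of the 33 genes, with a median of 0.00 along it, against 104 of 167 with a median of 0.15. It lay within 0.5 of 0 at 29 of the 33 and at 107 of the 167. The difference between these groups was not tested.

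The cap of 200 genes fell at a shift of about 1.24. Toward HK104 the last gene inside was WBGene00039775, with 115 HK104 and 190 AF16 reads in cold, against 27 and 107 in control. The first outside was WBGene00023795, with 40 and 36 in cold, against 18 and 39 in control. Toward AF16 the last inside was WBGene00040259, with 2 and 45 in cold, against 7 and 57 in control, and the first outside WBGene00028173, with 103 and 51 in cold, against 59 and 12 in control. The shifts of all 4 equalled 1.24 or 1.25 in size, and their counting errors ran from 0.35 to 1.09.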

How the data were processed

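RNA-seq counts were analysed. The authors deposited whole-number counts per gene of 8 parental libraries (15360979 to 18362210 each) and whole-number counts per gene and allele of the 2 hybrid libraries. The columns of the second table, named by strain and treatment, were read as the alleles of the hybrid. Cutadapt, HISAT2 2.2.0, HTSeq 0.11.1 and edgeR are named in the submitters' processing notes. The genome build, the annotation, the use of strand and the allele assignment are not given in the sources used here, so reads of near-identical or overlapping genes may be misassigned. Of 23175 WormBase IDs, 0 matched the supplied gene table (CB4 assembly). No symbols, positions or sequences are therefore given, and the planned pathway and marker lists were not run.

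The parental counts were fitted with edgeR 4.0.16 (R 4.3.3), default quasi-likelihood settings, TMM scaling, filterByExpr (minimum count 10; 13503 genes) and 1 coefficient per group. The fit was tested on simulated data. Adjusted p-values (FDR, Benjamini-Hochberg) cover all genes tested. A standard error is the absolute log2 value over the square root of F. CPM are TMM-scaled. Allele changes were scaled to the total of allele reads, and their counting errors come from the reciprocal counts. Named genes are those with the largest shift, the lowest adjusted p of the parental difference, the most reads and a place next to the cap, 2 per direction, plus WBGene00038120, added because it was called. Of these, values are printed for those the text discusses. The genes and measures were chosen with earlier results of these data known. Alternatives were DESeq2 1.42.0, its size factors, total counts, no filter, a replicate block, other member rules and leaving out each library. One AF16 cold library names another lane, and replicate 1 of both cold groups has a name suffix of unknown meaning; these cannot be told apart from the libraries.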

Additional observations from a re-analysis of the deposited data

Results flagged for a closer look

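At 5 of the 200 genes the strains differed in their cold response by edgeR's test of that difference. The parental differences, HK104 minus AF16 on the log2 scale, were -7.67 at WBGene00030657, -2.49 at WBGene00038280, -2.39 at WBGene00038120, -2.17 at WBGene00024634 and 2.67 at WBGene00040743. Across 13 alternatives of the parental fit the adjusted p of WBGene00038280 reached 0.108 and that of WBGene00024634 reached 0.263, and each of the 5 kept its sign.

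WBGene00028173, next to the cap on the outer side, had both cold libraries above control in HK104 (28.8 and 14.8 CPM, against 9.65 and 11.2 CPM) and both below control in AF16 (1.14 and 1.27 CPM, against 2.09 and 2.04 CPM). Its parental difference of 1.84 did not pass the test (FDR = 0.217). The hybrid's allele balance moved the other way, toward AF16, by -1.24.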

How the results depend on the processing

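The count of 356 genes with a shift of 1 or more was 119 with a count minimum of 100, 710 with a minimum of 20, and 123 for a shift of 1.5 or more; it was between 309 and 360 with other pseudocounts or with the share criterion in both libraries. Among the 200 genes, the 5 calls of the parental difference became 0 with total counts, 9 without a filter, 10 with the DESeq2 test and 9 with the replicate number as a block, and 0 to 5 when 1 library was left out; those 5 genes were among the calls without a filter, with DESeq2 and with the block. The sign of the allele shift was matched by 8 of the 9 calls without a filter, 9 of the 10 with DESeq2 and 8 of the 9 with the block. The replicate numbers gave correlations of replicate deviations between groups from 0.00 to 0.34, so they are not taken to pair the libraries. With a count minimum of 100 (119 genes) the calls were 3 for the parental difference, 19 for the HK104 response, 18 for the AF16 response, 17 for the strains after cold and 15 in control; over all 356 genes they were 8, 77, 80, 80 and 52. The set of 356 was added after seeing the data, and both sets hold another number of genes. Leaving out 1 library gave 30 to 64 calls for the HK104 response, 22 to 56 for the AF16 response, 31 to 48 for the strains after cold and 22 to 39 in control, and a median parental difference along the shift of 0.0445 to 0.190. Without the 44 genes with an allele share under 5% or over 95% in a library, 19 genes differed between the strains in control in place of 34. Over all tested genes the parental difference was called at 67 genes, and at 0 with total counts, 142 without a filter, 168 with the DESeq2 test and 144 with the block. WBGene00040743, WBGene00038280, WBGene00030657 and WBGene00024634 lost their call under 7 of 13 alternatives and WBGene00038120 under 9, with the same sign in each. WBGene00040205, which did not pass (FDR = 0.0839), passed with the DESeq2 test (FDR = 0.0357) and had an FDR of up to 0.422 in the others. Depth limits the precision of the shift: 167 of the 200 genes had under 160 reads in a library.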
